A study of Mus musculus with 12 samples.

Results

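The 10 genes described here encode regulators that steer blood progenitors toward granulocytes or monocytes: the C/EBP factors Cebpa, Cebpb, Cebpd and Cebpe, the zinc finger factors Gfi1, Klf4 and Zeb2, the interferon regulatory factor Irf8, the ETS factor Sfpi1 (the older symbol of Spi1, which encodes PU.1) and the helix-loop-helix protein Id2. They were taken by symbol, from a list made with earlier results of these data known, and are 10 of the 23479 genes in the table. All 10 reached the minimum mean of 10 normalized counts and were among the 11122 genes tested.

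RNA was measured in myeloid-derived suppressor cells (MDSC), immature myeloid cells that build up with a tumour and dampen T cell responses. Monocytic (M-MDSC) and polymorphonuclear, neutrophil-like (PMN-MDSC) cells were sorted from spleens of C57BL/6 mice bearing B16 melanoma, at a stated purity above 99%. All mice carried tumours, which had to exceed 25 mm2 before treatment began. Lymphodepleted mice (LD) had received 2 drugs, the DNA alkylator cyclophosphamide and the purine analogue fludarabine, with spleens collected 7 days later, and control mice (Ctrl) had received neither. Each population was taken from each treatment, which gives 4 groups of 3 libraries, 12 in all. The age of the mice and any pooling of animals are not given in the sources used here.

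As background, the choice between the granulocyte and monocyte branches is set by a small circuit of factors that act on one another. PU.1 is needed by both branches, and C/EBP-alpha opens the granulocyte-monocyte program in progenitors. C/EBP-epsilon and GFI1 drive granule formation and the later steps of neutrophil development, GFI1 as a repressor, while IRF8 and KLF4 drive the monocyte branch and IRF8 restrains the granulocyte branch. C/EBP-beta serves production of granulocytes under stress and is known as a regulator of MDSC. ZEB2 is a repressor that binds E-box motifs, and ID2 lacks a DNA-binding region and blocks E proteins by pairing with them.

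Between 8906045 and 16242926 reads were assigned to genes per library. Levels below are normalized counts, the reads of a gene divided by 1 size factor per library. Totals on this scale stayed lower in M-MDSC (8572575 to 9397397) than in PMN-MDSC (13715662 to 15808125), and scaling to equal totals moved the median of all genes from 0.06 to 0.71 (log2, M-MDSC minus PMN-MDSC) in Ctrl and from 0.1 to 0.84 in LD. Differences between the populations are therefore relative to the scale used, and those of the members all shifted toward M-MDSC with equal totals. The labels held against markers: all 8 monocyte markers were higher in M-MDSC Ctrl, and the 7 neutrophil markers used (Ly6g was not used here) were all higher in PMN-MDSC Ctrl. In LD, 7 of the 8 monocyte markers were higher in M-MDSC and all 7 neutrophil markers higher in PMN-MDSC. The monocyte marker Ly6c2 did not pass there (0.15, limma adjusted p = 0.395). Replicate 1 of both LD groups stood apart from its group in cycling-cell markers (8 genes, summed), at 12701.9 against 3764.1 and 5168.1 in M-MDSC LD and at 9980.5 against 1950.4 and 3055.6 in PMN-MDSC LD. Member results past the threshold for LD are therefore also given without both of these libraries, and for genes of the lists that are named below the calls lost without them are given. Nothing in the labels ties replicates to separate animals, so p-values here reflect only the spread between libraries, and that may be technical.

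Promoter sequences are shown for 3 members on which the results below turn, from the granulocyte side (Gfi1), the monocyte side (Irf8) and the E-box repressors (Zeb2). Each is the first RefSeq window of the gene on build GRCm38.p6, from 250 bases before to 50 after the transcription start, read 5′ to 3′ on the gene's strand, with capitals at motif matches.
Gfi1 at chr5:107725756-107726055, minus strand: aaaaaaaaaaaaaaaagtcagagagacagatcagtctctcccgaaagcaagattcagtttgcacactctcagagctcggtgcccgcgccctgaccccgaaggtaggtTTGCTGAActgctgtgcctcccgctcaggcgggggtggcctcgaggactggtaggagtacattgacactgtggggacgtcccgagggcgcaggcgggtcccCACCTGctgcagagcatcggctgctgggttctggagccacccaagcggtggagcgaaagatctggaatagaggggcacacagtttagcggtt
Irf8 at chr8:120736108-120736407, plus strand: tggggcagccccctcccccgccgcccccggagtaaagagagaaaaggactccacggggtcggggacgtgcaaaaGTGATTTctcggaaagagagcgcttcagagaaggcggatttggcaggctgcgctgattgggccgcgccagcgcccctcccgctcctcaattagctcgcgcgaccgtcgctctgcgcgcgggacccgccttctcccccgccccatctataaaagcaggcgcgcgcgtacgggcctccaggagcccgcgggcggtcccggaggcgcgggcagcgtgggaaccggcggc
Zeb2 at chr2:45117393-45117692, minus strand: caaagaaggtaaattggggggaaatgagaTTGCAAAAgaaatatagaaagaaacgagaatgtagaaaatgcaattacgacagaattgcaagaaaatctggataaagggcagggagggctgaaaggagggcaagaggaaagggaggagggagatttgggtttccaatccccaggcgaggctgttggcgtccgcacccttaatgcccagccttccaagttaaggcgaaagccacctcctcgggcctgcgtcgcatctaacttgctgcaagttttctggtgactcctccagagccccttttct
The capitals in Gfi1 are a C/EBP match, TTGCTGAA, whose first base lies at -143 from the start, and an E-box match of the ZEB type, CACCTG, at -42. Those in Irf8 are a GFI1 match, AAATCAC on the opposite strand, at -176, and those in Zeb2 are a C/EBP match, TTGCAAAA, at -221.

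Of the 10 members, 7 had an entry in the promoter table, with 12 windows in all (Cebpd, Cebpe and Sfpi1 had none). The search used both strands of each window. The C/EBP motif TTGCNNAA was found in 10.8% of all 32851 windows of 300 bases, the E-box CACCTG in 20.2% and the GFI1 core AAATCAC in 3.2%. The PU.1 motif AGGAAGT (9.4% of windows), the IRF motif GAAANNGAA (8.6%) and the KLF motif GGGTGTG (8.0%) had no match in the 12 windows. The only other match was an E-box in the second Irf8 window. These motifs do not overlap one another in the windows shown, and a match describes letters only.

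The first comparison asked how the fate factors differed between the 2 sorted populations. In Ctrl mice, M-MDSC held more Irf8 (22.3-fold), Klf4 (11.2-fold), Zeb2 (2.76-fold) and Cebpa (2.37-fold). PMN-MDSC held more Cebpe (12.4-fold), Cebpd (11.9-fold), Gfi1 (11.7-fold), Sfpi1 (2.91-fold) and Cebpb (1.33-fold). Id2 did not pass the test. So 4 members were higher and 5 lower in M-MDSC, where 38.8% and 36.8% of all tested genes were (75.6% in either direction), and a count of 9 of 10 is close to that background. In LD mice, 4 were higher and 3 lower, against 38.8% and 36.1% of all genes (74.8% in either direction). The members' median log2 difference was -0.31 in Ctrl (0.06 over all genes) and 0.15 in LD (0.1 over all genes). Positions below are those of GENCODE vM21 on GRCm38, the build called mm10. In bulk RNA, fewer cells of a type and less RNA per cell cannot be told apart.

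**Figure D1:**
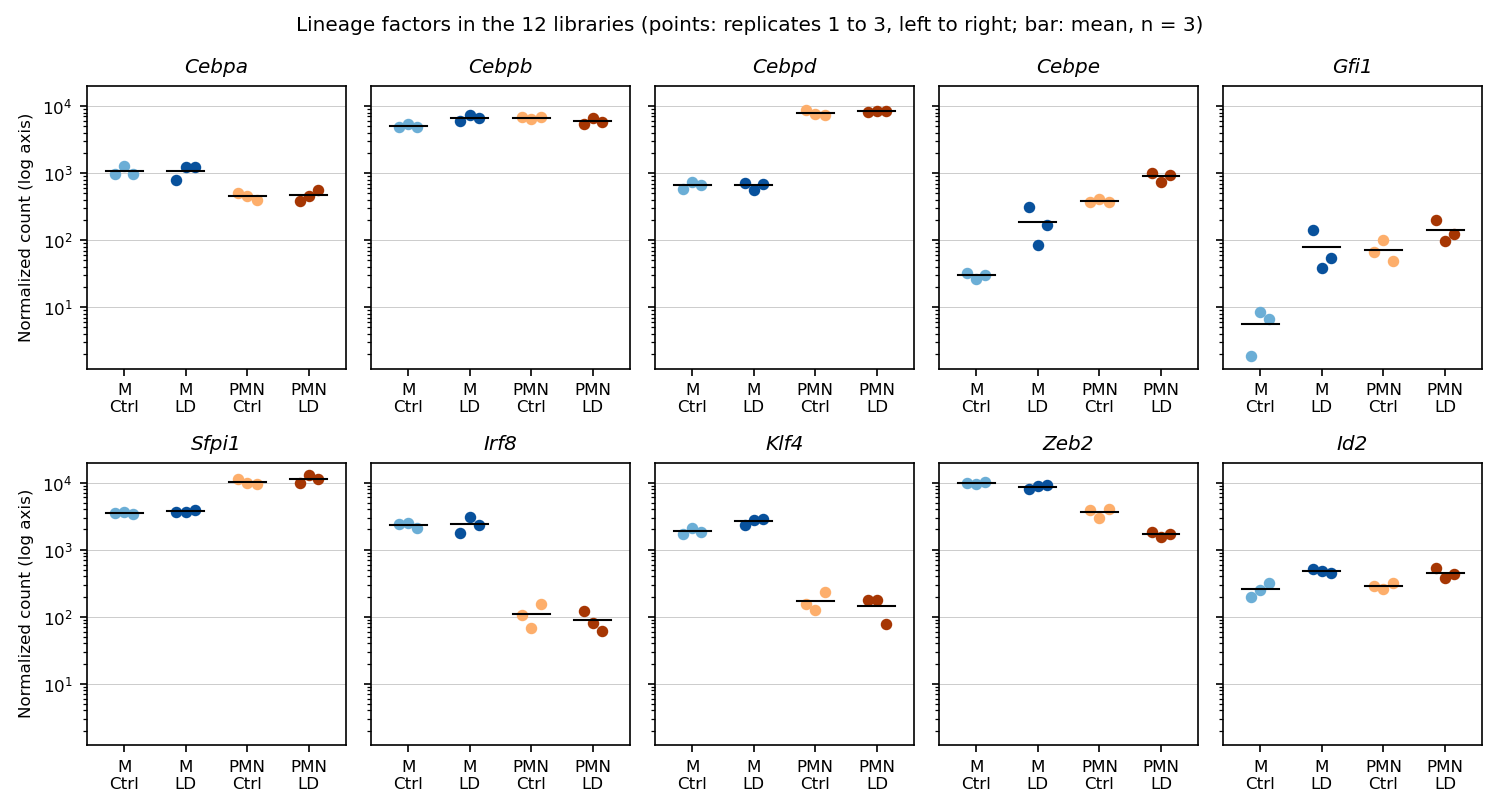
Normalized counts (log axis) of the 10 members in each of the 12 libraries, by group, with a bar at the mean of 3 libraries. Irf8 and Klf4 are at 1696.5 or above in every M-MDSC library and at 236.2 or below in every PMN-MDSC library, and Cebpd splits the other way.

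Irf8 (chr8:120736358-120756694, plus strand), which encodes a factor required for monocyte development, measured 2426.7, 2497.4 and 2114.9 in M-MDSC Ctrl and 1743.7, 3076.3 and 2341.7 in M-MDSC LD. In PMN-MDSC it measured 105.1, 68.6 and 156.4 in Ctrl and 121.7, 80.9 and 61.7 in LD. Every M-MDSC library was far above every PMN-MDSC library, and the LD libraries enclosed or overlapped the Ctrl libraries in both populations. The log2 difference between populations was 4.48 ± 0.28 in Ctrl (limma adjusted p = 2.63e-09) and 4.76 ± 0.28 in LD (1.46e-09), the largest of the 10 members in both. The LD change was -0.01 ± 0.28 in M-MDSC (95% interval -0.62 to 0.6) and -0.29 ± 0.28 in PMN-MDSC, neither past the threshold.

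Klf4 (chr4:55527143-55532466, minus strand), a Krüppel-like factor of inflammatory monocytes, measured 1696.5, 2080.2 and 1843.9 in M-MDSC Ctrl against 153.0, 126.6 and 236.2 in PMN-MDSC Ctrl. In LD it measured 2339.9, 2763.8 and 2827.4 in M-MDSC against 178.5, 176.5 and 78.5 in PMN-MDSC. The populations were apart by 3.48 ± 0.27 in Ctrl (limma adjusted p = 2.49e-08) and by 4.27 ± 0.27 in LD (2.84e-09). All 3 M-MDSC LD libraries exceeded all 3 M-MDSC Ctrl libraries, yet the LD difference of 0.5 ± 0.27 missed the threshold (limma adjusted p = 0.491). With only the M-MDSC libraries in the fit it passed (adjusted p = 0.0176). In PMN-MDSC the difference was -0.29 ± 0.27, and the groups overlapped.

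Cebpa (chr7:35119293-35121928, plus strand), which founds the granulocyte-monocyte program, measured 970.8, 1289.9 and 971.0 in M-MDSC Ctrl and 510.1, 451.8 and 395.9 in PMN-MDSC Ctrl. In LD it measured 779.5, 1255.8 and 1237.4 in M-MDSC and 390.9, 463.3 and 563.7 in PMN-MDSC. M-MDSC libraries were higher throughout, and LD and Ctrl overlapped within each population. The population difference was 1.24 ± 0.19 in Ctrl (limma adjusted p = 3.19e-05) and 1.19 ± 0.19 in LD (4.87e-05). The LD changes were 0 ± 0.19 and 0.05 ± 0.19 and did not pass.

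Sfpi1 (chr2:91082390-91115756, plus strand), the gene of PU.1, measured 3530.5, 3620.8 and 3374.8 in M-MDSC Ctrl and 11215.0, 9889.7 and 9586.8 in PMN-MDSC Ctrl. In LD it measured 3690.9, 3595.1 and 3840.1 in M-MDSC and 9960.2, 12826.1 and 11351.6 in PMN-MDSC. All PMN-MDSC libraries were higher, with differences of -1.54 ± 0.1 in Ctrl (limma adjusted p = 2.85e-09) and -1.61 ± 0.1 in LD (1.91e-09). The M-MDSC libraries were close to one another, with an SD of 124.4 in Ctrl and 123.5 in LD (n = 3). LD differences were 0.08 in M-MDSC and 0.15 in PMN-MDSC, each ± 0.1, and did not pass.

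Cebpd (chr16:15887286-15891031, plus strand), an acute-phase C/EBP factor, measured 8671.9, 7619.4 and 7328.2 in PMN-MDSC Ctrl against 580.4, 739.7 and 668.1 in M-MDSC Ctrl. In LD it measured 8205.9, 8425.2 and 8591.9 in PMN-MDSC and 711.4, 567.2 and 700.4 in M-MDSC. Its population difference was -3.57 ± 0.11 in Ctrl (limma adjusted p = 2.18e-12) and -3.68 ± 0.11 in LD (2.29e-12), the smallest p of the 10 members in each. It had LD differences of -0.01 ± 0.11 in M-MDSC and 0.1 ± 0.11 in PMN-MDSC, with overlapping libraries. Its exon overlaps that of Spidr on the opposite strand (2310008H04Rik in the table), which measured 335.9 on average in M-MDSC Ctrl and 1639.7 in PMN-MDSC Ctrl. Since the strand of counting is not stated, reads of the pair cannot be told apart, and the same holds for Cebpa, Cebpb, Gfi1 and Zeb2, whose exons also overlap genes on the other strand.

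Lymphodepletion was compared next within M-MDSC. The granulocyte-side factors Gfi1 and Cebpe were higher in LD by 11.3-fold and 5.39-fold, from low Ctrl levels, and Id2 by 1.90-fold and Cebpb by 1.33-fold. The monocyte-side factors Irf8, Klf4 and Zeb2 did not pass, nor did Cebpa, Cebpd and Sfpi1. So 4 of 10 members were higher, where 2.54% of all tested genes were. None was lower, where 0.468% of all genes were, and 3.01% passed in either direction. None was lower at an unadjusted p under 0.05 or by edgeR or DESeq2 either. The members' median difference was 0.25, against -0.04 over all genes.

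Cebpe (chr14:54710360-54712174, minus strand), which drives secondary granule genes, measured 32.4, 26.8 and 30.3 in M-MDSC Ctrl and 313.7, 84.9 and 167.5 in M-MDSC LD. In PMN-MDSC it measured 369.3, 406.1 and 367.1 in Ctrl and 995.5, 739.9 and 943.7 in LD. Every LD library was above every Ctrl library of its population, with the M-MDSC LD libraries spread widely and replicate 1 the highest. The LD difference was 2.43 ± 0.33 in M-MDSC (limma adjusted p = 8.68e-04). It remained at 1.97 (adjusted p = 0.000645) without both LD replicate 1 libraries.

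Gfi1 (chr5:107716657-107726036, minus strand), a repressor that limits monocyte genes in granulocyte precursors, measured 1.9, 8.6 and 6.7 in M-MDSC Ctrl, which rest on 3, 9 and 12 reads, and 142.7, 39.1 and 54.2 in M-MDSC LD (197, 46 and 55 reads). All LD libraries were above all Ctrl libraries, and replicate 1 was again the highest. The LD difference was 3.5 ± 0.54 (limma adjusted p = 0.002395), and 2.96 (adjusted p = 0.005441) without both LD replicate 1 libraries. With the pseudocount raised to 8 it was 2.5, since the Ctrl libraries are near 0. In PMN-MDSC, Gfi1 measured 66.3, 102.0 and 49.5 in Ctrl and 200.2, 97.1 and 122.0 in LD, which overlapped. That difference of 0.93 ± 0.54 did not pass (adjusted p = 0.2627, 95% interval -0.23 to 2.09).

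The levels of the 2 granulocyte-side factors can also be set against those in PMN-MDSC of the same treatment. Set against the PMN-MDSC LD mean, the 3 M-MDSC LD libraries held 102%, 27.9% and 38.8% of its Gfi1 and 35.1%, 9.51% and 18.8% of its Cebpe. The M-MDSC Ctrl libraries held 2.68%, 11.9% and 9.27% of the PMN-MDSC Ctrl mean for Gfi1 and 7.04% to 8.51% for Cebpe. The population difference in LD was -2.42 ± 0.33 for Cebpe (limma adjusted p = 9.81e-06). For Gfi1 it was -0.98 ± 0.54 and did not pass (adjusted p = 0.115), and without M-MDSC LD replicate 1 it was -1.52 and passed (0.0215). Whether these gaps changed with treatment is the test of the difference of the LD changes, which neither gene passed. The ratio of Cebpe to Irf8 ran from 0.0107 to 0.0143 in M-MDSC Ctrl and was 0.18, 0.0276 and 0.0715 in M-MDSC LD. In PMN-MDSC the same ratio ran from 2.35 to 5.92 in Ctrl and from 8.18 to 15.3 in LD.

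Markers of other cells moved with Gfi1 and Cebpe in M-MDSC LD. The summed neutrophil markers measured 38572.2, 9268.0 and 15740.8 in its 3 libraries against 5564.2 to 6267.8 in Ctrl. Most of the higher neutrophil sum came from S100a9 (mean 901.8 in Ctrl and 12098.1 in LD) and S100a8 (416.8 and 4907.6). Csf3r was lower on average (4556.9 and 3966.8). Cxcr2, Mmp9, Retnlg and Il1r2 were higher on average, with LD means of 100.6 or below. The summed granulocyte-monocyte progenitor markers (Kit, Cd34, Flt3, Myb, Sox4, Cd63, Mpo and Elane) measured 6970.3, 1801.0 and 2266.8 against 457.8 to 571.1. Most of the progenitor sum in LD came from Mpo and Elane, with means of 2190.8 and 778.2. Flt3 (mean 310.1 in Ctrl and 275.5 in LD) and Sox4 (13.3 and 9.2) were lower in LD. Cycling-cell markers measured 3764.1 to 12701.9 against 1185.6 to 1450.1. In each of these sums the order of the 3 LD libraries was that of Gfi1 and Cebpe, with replicate 1 highest and replicate 2 lowest. No marker of these lists was at 0 in all 3 libraries. Past the threshold and higher were 6 of 8 cycling, 5 of 7 progenitor and 3 of 7 neutrophil markers. Macrophage markers summed to 1170.9 to 1293.8 in M-MDSC LD against 674.9 to 830.6 in Ctrl, with 3 of 7 higher. Monocyte markers summed to 78321.0 to 100750.0, lowest in replicate 1, against 110245.6 to 132899.3 in Ctrl, and none of the 8 passed by itself. Most of the lower sum came from Fn1 (mean 54595.3 in Ctrl and 32770.7 in LD) and F13a1 (11397.5 and 6138.5). Ccr2, Mpeg1 and Ly86 were lower on average by less. Csf1r (14973.9 and 16223.6), Ly6c2 (1559.4 and 2195.8) and Cx3cr1 (3755.2 and 3857.3) were higher on average. As shares of the PMN-MDSC LD mean, the same libraries held 37.5%, 8.16% and 17.0% for the granule gene Camp and 13.8%, 2.96% and 6.83% for Ltf. The granule genes Mpo (911% to 4030%) and Elane (1090% to 6700%) were instead above that mean in all of these libraries. In M-MDSC Ctrl both were also above their PMN-MDSC Ctrl means, which were near 0 (3.3 and 0.3). Among other neutrophil genes the shares varied widely. They were 0.0621% to 0.296% for Cxcr2 and 0.0605% to 0.293% for Mmp9. For Mmp8 they were 1.53% to 1.88%, for Csf3r 3.72% to 4.54% and for Cd177 6.01% to 13.7%. Set against the PMN-MDSC Ctrl mean, M-MDSC Ctrl libraries held more Mmp8 (10.1% to 14.9%) and less Camp (2.82% to 4.05%), Ltf (1.14% to 1.52%) and Csf3r (2.76% to 2.97%). Their shares of Cd177 (13.2% to 21.3%), Cxcr2 (0.0285% to 0.122%) and Mmp9 (0.00788% to 0.119%) overlapped those in LD. The part of these cell types in the rise of Gfi1 and Cebpe was not tested.

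**Figure D2:**
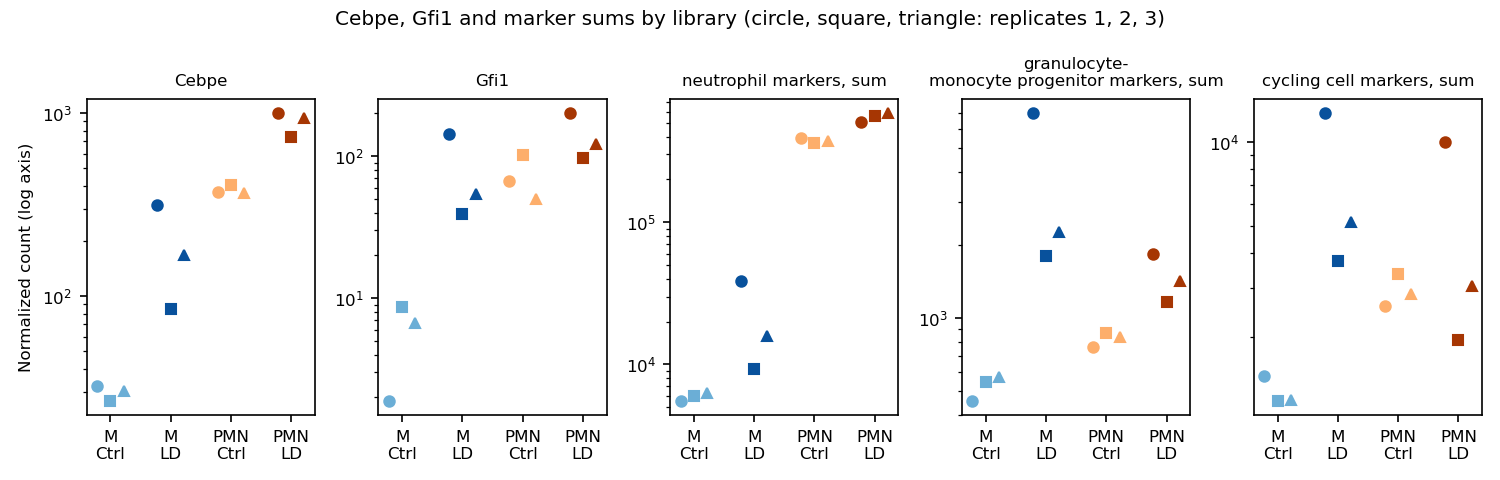
Normalized counts of Cebpe and Gfi1 and summed normalized counts of 3 marker lists in each of the 12 libraries (log axes), by group, with a symbol for each replicate number. In M-MDSC LD both genes and the neutrophil, progenitor and cycling lists are highest in replicate 1, and all 3 LD libraries lie above the 3 Ctrl libraries.

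Id2 (chr12:25093799-25097140, minus strand), the inhibitor of E proteins, measured 197.1, 250.7 and 323.7 in M-MDSC Ctrl and 518.0, 475.5 and 445.3 in M-MDSC LD. In PMN-MDSC it measured 289.7, 261.9 and 322.4 in Ctrl and 526.1, 379.5 and 429.1 in LD. The LD libraries were above the Ctrl libraries in both populations, and M-MDSC and PMN-MDSC overlapped in each treatment. The LD difference was 0.92 ± 0.18 in M-MDSC (limma adjusted p = 0.01022) and 0.6 ± 0.18 in PMN-MDSC (0.03487). Without both LD replicate 1 libraries the M-MDSC difference was 0.87 and passed (adjusted p = 0.01837). The call was lost in M-MDSC without M-MDSC Ctrl replicate 1 (adjusted p = 0.0526) and in PMN-MDSC without both LD replicate 1 libraries (0.0888). The population difference was -0.2 ± 0.18 in Ctrl (95% interval -0.58 to 0.18) and 0.12 ± 0.18 in LD.

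Cebpb (chr2:167688915-167690418, plus strand), the stress-responsive C/EBP gene, measured 4907.9, 5403.4 and 4807.5 in M-MDSC Ctrl and 6004.0, 7415.3 and 6746.3 in M-MDSC LD. In PMN-MDSC it measured 6947.9, 6356.4 and 6827.0 in Ctrl and 5475.1, 6574.8 and 5748.0 in LD. LD libraries were above Ctrl libraries in M-MDSC and overlapped them in PMN-MDSC. The difference of 0.41 ± 0.1 in M-MDSC was near the threshold (limma adjusted p = 0.03565), and it was lost when any 1 of several libraries was left out, with p reaching 0.1505 without M-MDSC Ctrl replicate 3. Without both LD replicate 1 libraries it was 0.49 and passed (adjusted p = 0.006853). In PMN-MDSC it was -0.18 ± 0.1 and did not pass. Between populations Cebpb was lower in M-MDSC Ctrl (-0.41 ± 0.1, adjusted p = 0.001625), and higher, at 0.21, when libraries were scaled to equal totals. In LD the difference was 0.18 ± 0.1 and did not pass (adjusted p = 0.1149). Its exon overlaps that of Tmem189 on the opposite strand, which measured 406.8 in M-MDSC Ctrl and 1001.1 in PMN-MDSC Ctrl on average.

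Within PMN-MDSC, the LD difference with the smallest p among the members was in Zeb2, which fell 2.11-fold. Cebpe was 2.33-fold higher, a larger change, and Id2 1.52-fold higher in LD, and the other 7 members did not pass. So 2 of 10 were higher and 1 lower, where 7.17% and 8.51% of all genes were (15.7% in either direction). The members' median difference was 0.08, against -0.05 over all genes. The Cebpe difference was 1.22 ± 0.33 (limma adjusted p = 0.0233), and it missed the threshold without any 1 of the PMN-MDSC Ctrl libraries or without PMN-MDSC LD replicate 3, with p from 0.0554 to 0.0775. Id2 did not pass without those libraries either, which left Zeb2 as the 1 member past the threshold. The Cebpe difference was 1.13 and passed (0.007767) without both LD replicate 1 libraries. Granulocyte-monocyte progenitor markers summed to 1840.8, 1169.4 and 1420.5 in PMN-MDSC LD against 763.0 to 867.5 in Ctrl. Of 7 tested, 2 were higher and past the threshold. The largest part of this sum was Cd63 (mean 588.4 in Ctrl and 892.6 in LD). Myb (116.9 and 267.3), Mpo (3.3 and 108.9) and Kit (88.8 and 146.3) were also higher on average, and Elane, Flt3, Cd34 and Sox4 by less. The part of these markers in the Cebpe difference was not tested.

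Zeb2 (chr2:44983632-45117395, minus strand), an E-box repressor that acts in monocyte and dendritic cell development, measured 3848.9, 2981.3 and 4006.5 in PMN-MDSC Ctrl and 1838.1, 1559.1 and 1719.2 in PMN-MDSC LD. The groups were far apart, and the LD libraries differed little from one another. The log2 difference was -1.07 ± 0.11 (limma adjusted p = 7.93e-05), rank 14 by p among the 11122 genes. It stayed between -1.21 and -0.99 with each library left out and was -1.13 without both LD replicate 1 libraries. In M-MDSC, Zeb2 measured 9957.2, 9479.7 and 10219.3 in Ctrl and 8057.0, 8930.9 and 9158.0 in LD. These also did not overlap, but the difference of -0.18 ± 0.11 did not pass (adjusted p = 0.5582). M-MDSC exceeded PMN-MDSC by 1.46 ± 0.11 in Ctrl (1.69e-08) and 2.35 ± 0.11 in LD (1.26e-10).

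An antisense gene, Zeb2os (Gm13476 in the table), overlaps Zeb2 exons. It measured 92.6 ± 4.3 (SD, n = 3) in PMN-MDSC Ctrl and 45.2 ± 21.9 in PMN-MDSC LD, with an LD difference of -1.14 (limma adjusted p = 0.01942). In M-MDSC it measured 254.4 ± 25.7 in Ctrl and 213.3 ± 22.3 in LD. Its direction was that of Zeb2, at a level far below it. Reads of the 2 genes cannot be told apart without strand. Monocyte markers, which Zeb2 accompanies between populations, gave 1 higher and 2 lower of 8 in PMN-MDSC LD. Their summed levels were 24706.1 to 29761.6 in Ctrl and 20840.9 to 22461.8 in LD, with no marker at 0 in all 3 libraries of a group. Most of this sum was Mpeg1 (mean 16107.1 in Ctrl and 12284.3 in LD) and Csf1r (7997.7 and 5673.1). Ly6c2 was higher on average (523.0 and 1974.7), and Fn1 (1516.1 and 903.7), Ccr2, F13a1, Cx3cr1 and Ly86 were lower. The part of monocyte markers in the Zeb2 difference was not tested.

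**Figure D3:**
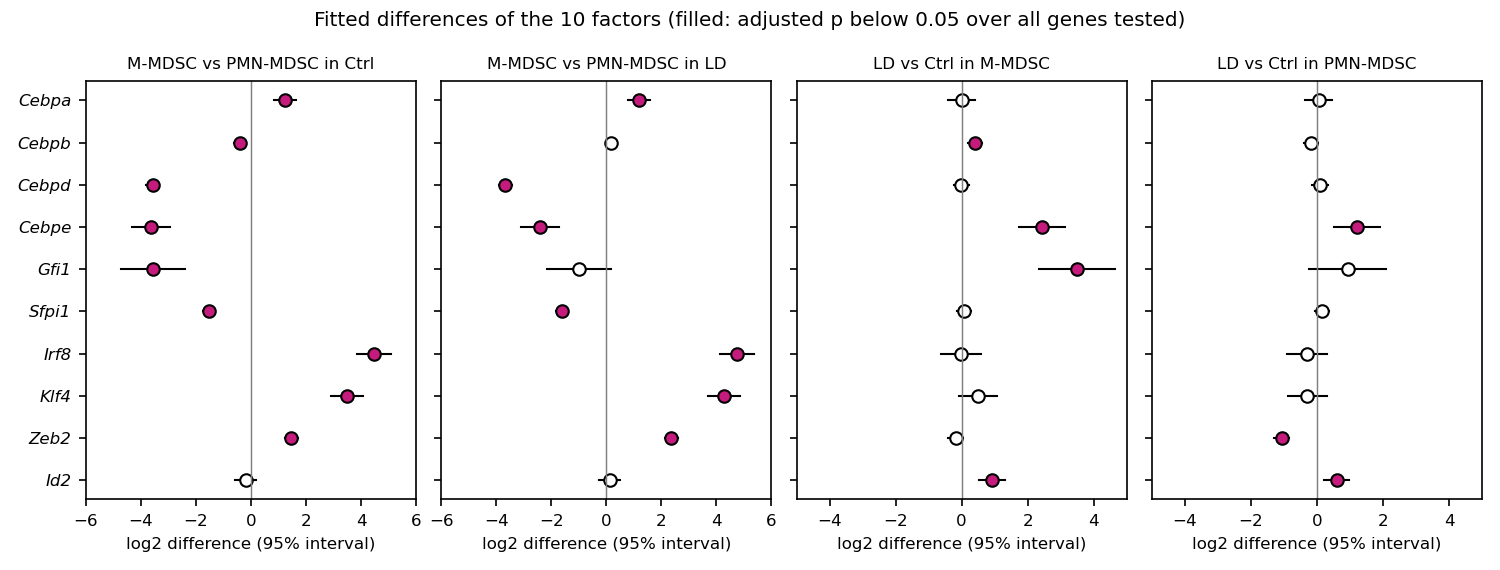
Log2 differences with 95% intervals from limma for the 10 members in 4 comparisons, with filled points past an adjusted p of 0.05. Zeb2 is the one member below 0 and past the threshold for LD in PMN-MDSC, and Gfi1 and Cebpe have the largest LD differences in M-MDSC.

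Whether a factor responded differently in the 2 populations was tested as the difference of the LD changes, M-MDSC minus PMN-MDSC. It passed for Zeb2 (0.89 ± 0.16, limma adjusted p = 0.009565) and Cebpb (0.59 ± 0.14, 0.04333). That is 2 of 10 higher, where 1.18% of all genes were higher and 1.07% lower (2.25% in either direction). No member was lower, at an unadjusted p under 0.05 or by edgeR or DESeq2 either. Gfi1 (2.57 ± 0.77, adjusted p = 0.09212) and Cebpe (1.21 ± 0.46, 0.1861) did not pass, so their LD changes are not shown to differ between the populations. The same holds for Klf4 (0.79 ± 0.38), Id2 (0.32 ± 0.25) and Irf8 (0.28 ± 0.4). DESeq2 passed Gfi1 and Cebpe as well, at 2.87 (adjusted p = 0.0072) and 1.43 (0.04). With both LD replicate 1 libraries left out, Cebpb was 0.62 (adjusted p = 0.01299), and Zeb2 also passed (0.003208). Zeb2 passed under all 25 alternatives run, and Cebpb under 14 of 25. Leaving out any 1 of 8 libraries (all M-MDSC Ctrl and PMN-MDSC Ctrl libraries and replicate 3 of both LD groups) left Zeb2 as the 1 member past the threshold.

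**Figure D4:**
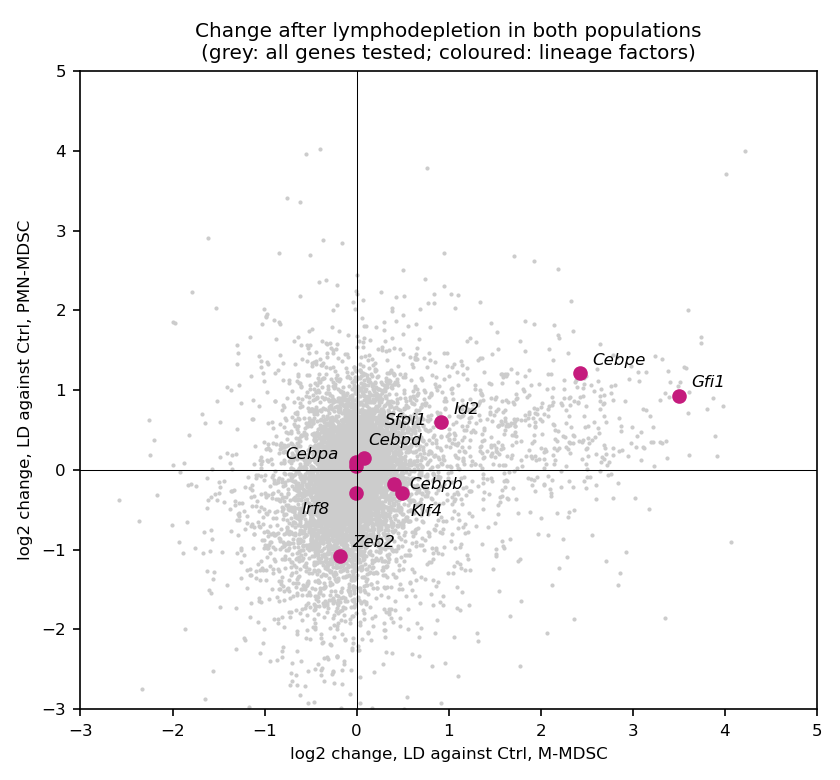
LD minus Ctrl in M-MDSC (x axis) against PMN-MDSC (y axis), log2, for all 11122 genes tested (grey, 15 of them outside the axes) and the 10 members (named). Gfi1 and Cebpe lie at the upper right and Zeb2 lies below the other members.

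Levels can be compared between genes per kilobase of transcript, here of the principal transcript in GENCODE vM21. On this scale the mean level in M-MDSC Ctrl was highest for Cebpb (3350.8), followed by Sfpi1 (1725.0), Zeb2 (1083.4), Irf8 (824.1), Klf4 (618.5) and Cebpa (410.2). Cebpd (176.9) and Id2 (130.6) had overlapping libraries, and Cebpe (24.0) and Gfi1 (2.0) were lowest. In M-MDSC LD the order was the same at the top, with Zeb2, Klf4 and Irf8 now overlapping their neighbours, and Cebpe (152.0) reached the range of Cebpd (176.1). In PMN-MDSC Ctrl, Sfpi1 (5029.8), Cebpb (4461.7) and Cebpd (2101.8) led, and Zeb2 (395.9) overlapped Cebpe (306.9). In PMN-MDSC LD, Cebpe (719.6) stood clear of its neighbours on either side, while Zeb2 (186.9) overlapped Id2 (226.0) and Cebpa (180.0). Gfi1, Klf4 and Irf8 were lowest in PMN-MDSC and overlapped in their neighbouring pairs in both treatments. These orders depend on the gene model: per kilobase of all exons, Cebpb stood above Sfpi1 in PMN-MDSC Ctrl.

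The makeup of the C/EBP family was taken as each gene's share of the summed level per kilobase of all exons. The sum is over the 4 members, Cebpg and Cebpz (the last binds CCAAT boxes but is not a leucine zipper C/EBP). Cebpb held 77.16% ± 0.9 (SD, n = 3) in M-MDSC Ctrl, 80.62% ± 1.83 in M-MDSC LD, 60.23% ± 1.76 in PMN-MDSC Ctrl and 53.1% ± 3.03 in PMN-MDSC LD. It was the largest share in each library. Cebpd held 4.07% ± 0.32 and 3.21% ± 0.62 in M-MDSC against 28.34% ± 1.46 and 30.28% ± 1.01 in PMN-MDSC. Cebpa held 9.36% ± 0.88 and 7.41% ± 1.36 against 2.31% ± 0.22 and 2.41% ± 0.41. Cebpe went from 0.56% ± 0.09 in Ctrl to 1.15% to 5.01% in LD in M-MDSC, and from 4.15% ± 0.38 to 9.75% ± 1.84 in PMN-MDSC. Cebpa thus took a larger share in M-MDSC, and Cebpd and Cebpe larger ones in PMN-MDSC of the same treatment. RefSeq ends Cebpd earlier, and with that length its share in PMN-MDSC Ctrl was 39.58% and that of Cebpb 50.78%.

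**Figure D5:**
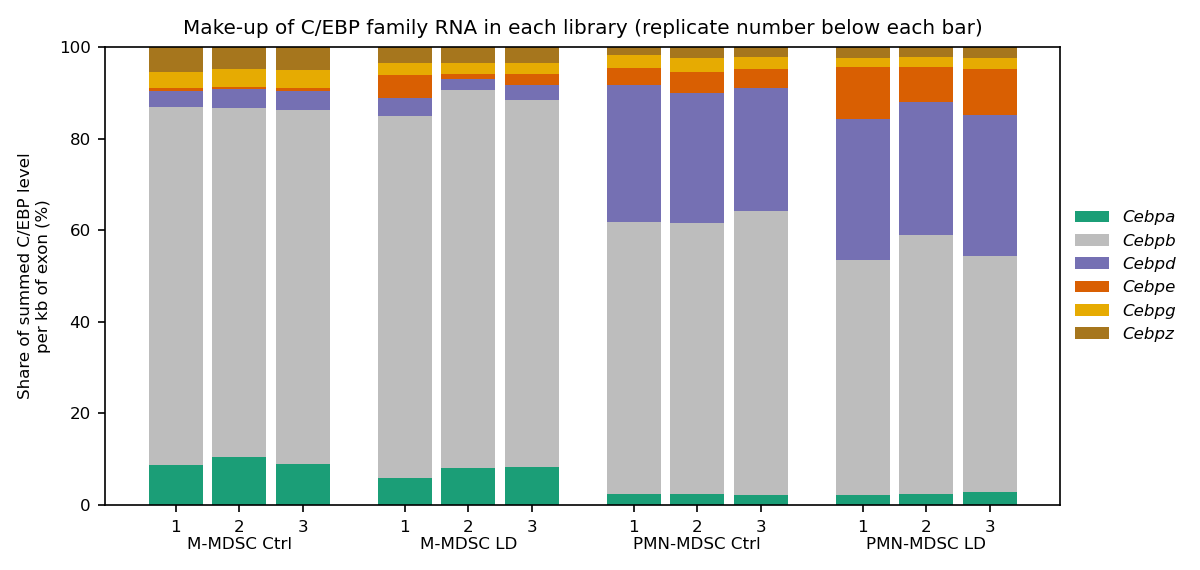
Share of each C/EBP gene in the summed per-kilobase level (percent, stacked to 100) in each of the 12 libraries. Cebpb is the largest share throughout, Cebpd is 26.83% to 30.89% in PMN-MDSC and under 5% in M-MDSC.

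Deviations from the group mean (log2) were compared between members over the 12 libraries. The correlations of all pairs ran from -0.83 for Cebpb and Cebpe to 0.79 for Irf8 and Klf4, with most pairs weaker than 0.5 in size. The next in size were Irf8 with Zeb2 (0.73), Cebpa with Cebpb (0.65), Cebpa with Cebpe (-0.65), Cebpd with Gfi1 (0.64) and Cebpe with Gfi1 (0.6). These are descriptions over libraries that share 4 groups, a size factor and depth. The genes whose level followed a member most closely over the 12 libraries (Pearson's r, log2) were Ngp (0.996) for Cebpe, Phospho1 (0.999) and C5ar1 (0.998) for Cebpd, Lrp1 (0.997) for Irf8, Pld4 (0.995) for Klf4 and Grb2 (0.997) for Sfpi1. For Zeb2 it was Ppm1h (0.996), for Cebpa Itm2c (0.985), for Gfi1 Hist1h2ac (0.97), for Id2 Hist1h2bf (0.91) and for Cebpb Ccrl2 (0.795). For most members such values follow the 2 populations. Id2, however, did not pass between the populations in either treatment, and Cebpb and Gfi1 passed in Ctrl only.

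The other genes of these circuits were read from lists. Of all tested genes, 38.8% were higher and 36.8% lower in M-MDSC Ctrl than in PMN-MDSC Ctrl. For LD, 2.54% were higher and 0.468% lower in M-MDSC, and 7.17% and 8.51% in PMN-MDSC. List counts between the populations in Ctrl are thus to be read against 75.6% of all genes passing. Of 8 tested C/EBP relatives and partners, 7 were lower and 1 higher in M-MDSC Ctrl than in PMN-MDSC Ctrl (5 and 2 with equal totals). Among the lower were Trib1 (-2.98 ± 0.11, limma adjusted p = 1.32e-11), whose protein directs C/EBP-alpha to degradation, and Ddit3 (-3.47 ± 0.16, 8.88e-11), a stress-induced C/EBP partner. In M-MDSC LD, Trib1 was the 1 member of the list past the threshold (0.89 ± 0.11, 6.27e-04). In PMN-MDSC LD none passed in limma, with 3 lower at an unadjusted p under 0.05, 1 lower by edgeR and 2 lower by DESeq2. Nearest were Cebpg (-0.34 ± 0.11, adjusted p = 0.05386) and Atf4 (-0.33 ± 0.12, 0.07919).

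Of 11 tested PU.1 partners and relatives, 5 were higher and 5 lower in M-MDSC Ctrl (6 and 4 with equal totals). Irf4, an interferon regulatory factor that binds DNA with PU.1, was higher (4.58 ± 0.36, limma adjusted p = 3.21e-08). The ETS factors Ets2 (-4.92 ± 0.23, 1.01e-10) and Ets1 (-3.89 ± 0.32, 4.60e-08) and the core-binding factor Runx2 (-1.46 ± 0.09, 1.80e-09) were lower. In M-MDSC LD, Ets1 rose (1.71 ± 0.32, 0.008698) and was the only one to pass. It measured 479.6, 125.7 and 256.1 there, the replicate order of the neutrophil, progenitor and cycling markers, whose part was not tested, and it was 1.24 (adjusted p = 0.008623) without both LD replicate 1 libraries. In PMN-MDSC LD, Runx2 (-0.42 ± 0.09, 0.006752) and Runx3 (-0.68 ± 0.16, 0.01321) fell, and no other gene of the list passed.

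Of 18 monocyte, macrophage and dendritic cell factors, 8 were higher and 7 lower in M-MDSC Ctrl. Tcf4, an E protein of plasmacytoid dendritic cells, was higher (3.11 ± 0.22, limma adjusted p = 6.92e-09). Egr1, an immediate-early factor (-4.32 ± 0.27, 2.63e-09), and the repressor Bcl6 (-1.44 ± 0.09, 2.25e-09) were lower. In M-MDSC LD, 3 rose: Egr1 (1.66 ± 0.27, 0.003525), Bhlhe40 (0.88 ± 0.15, 0.003813) and the interferon-induced Irf7 (0.42 ± 0.09, 0.01716). In PMN-MDSC LD, Irf7 alone passed (0.48 ± 0.09, 0.003103).

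Of 14 tested progenitor and granulocyte factors, 6 were higher and 6 lower in M-MDSC Ctrl (8 and 6 with equal totals), with Stat3 (-1.21 ± 0.08, limma adjusted p = 2.39e-09) and Stat5b (-1.56 ± 0.08, 2.05e-10), which carry cytokine signals, among the lower. In M-MDSC LD, the progenitor factors Myb (2.25 ± 0.42, 0.008389) and Erg (2.79 ± 0.53, 0.01012) rose. In PMN-MDSC LD, Lmo2 rose (0.57 ± 0.1, 0.001879), while Stat5b (-0.28 ± 0.08, 0.02605) and Lyl1 (-0.32 ± 0.1, 0.0377) fell. With both LD replicate 1 libraries left out, Myb was 1.75 (adjusted p = 0.01464), Erg 2.12 (0.02273) and Lyl1 -0.3, which did not pass (0.05509). The progenitor and cycling markers given above were high in the same M-MDSC LD libraries as Myb, itself one of them, and Erg, and their part in these rises was not tested.

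Of 5 tested relatives of Id2 and Zeb2, 2 were higher and 2 lower in M-MDSC Ctrl, and Tcf3 did not pass (-0.29 ± 0.14). Id3 (3.7 ± 0.95, limma adjusted p = 0.00271) and the E protein gene Tcf12 (3.38 ± 0.56, 6.71e-05) were higher, and Id1 (-3.1 ± 0.26, 6.37e-08) and Zeb1 (-3.71 ± 0.2, 5.45e-10) were lower. Zeb1 was thus 13.1-fold higher in PMN-MDSC, where Zeb2 was lower. In M-MDSC LD, Id1 rose (1.07 ± 0.26, 0.03976), and without both LD replicate 1 libraries it did not pass (0.83, adjusted p = 0.0723). In PMN-MDSC LD none of the 5 passed in limma, at an unadjusted p under 0.05, or by edgeR or DESeq2.

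Genes downstream of the factors were read in the same way. Of 16 granule and other neutrophil genes under C/EBP control, 5 were higher and 10 lower in M-MDSC Ctrl than in PMN-MDSC Ctrl. Of all genes, 38.8% were higher and 36.8% lower there. Between the populations in LD the counts were also 5 and 10. In M-MDSC LD against Ctrl, 10 of the 16 were higher and 1 lower, where 2.54% and 0.468% of all genes were. The list median was 2.98 against -0.04 over all genes. Ltf, which encodes lactoferrin (3.56 ± 0.36, limma adjusted p = 1.58e-04), Itgb2l (3.74 ± 0.37, 1.58e-04) and the granule protein genes Camp (3.52 ± 0.37, 1.72e-04) and Ngp (3.32 ± 0.38, 2.97e-04) rose, and Mmp8 fell (-0.89 ± 0.17, 0.01038). In PMN-MDSC LD, 10 of the 16 were also higher and 1 lower, where 7.17% and 8.51% of all genes were, with a median of 1.41. There Mmp8 (1.88 ± 0.17, 4.09e-05) and Cd177 (1.53 ± 0.23, 8.77e-04) rose, and Csf3r, the G-CSF receptor gene, fell (-0.7 ± 0.1, 9.47e-04). The primary granule gene Elane, itself one of the progenitor markers, passed from near 0, at 0.0, 0.9 and 0.0 in Ctrl and 56.8, 13.2 and 4.2 in LD. The neutrophil, progenitor and cycling marker levels given above were higher in the same M-MDSC LD libraries, and the progenitor marker levels were higher in PMN-MDSC LD, and their part in these changes was not tested. In M-MDSC, Ltf (3.02), Itgb2l (3.23), Camp (2.96) and Ngp (2.74) still passed without both LD replicate 1 libraries.

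Of 16 monocyte genes under PU.1 or IRF8 control, 14 were higher and 2 lower in M-MDSC Ctrl, where 38.8% and 36.8% of all genes were. Among the higher were the scavenger receptor gene Msr1 (5.24 ± 0.21, limma adjusted p = 2.48e-11) and the protease gene Ctss (3.07 ± 0.14, 5.97e-11). In M-MDSC LD none passed in limma or edgeR, while 3 were higher and 2 lower at an unadjusted p under 0.05, and DESeq2 called 1 each way. The nearest were Emr1 (-0.34 ± 0.1, adjusted p = 0.1023) and Ly6c2 (0.5 ± 0.16, 0.1231). In PMN-MDSC LD, Ly6c2 (1.94 ± 0.16, 2.39e-05), Cybb (1.2 ± 0.14, 1.26e-04) and Fcgr1 (0.82 ± 0.24, 0.03007) rose and Csf1r fell (-0.49 ± 0.1, 0.005943). Fcgr1 did not pass without both LD replicate 1 libraries (0.67, adjusted p = 0.06344).

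Of 6 tested genes that GFI1 is known to repress in progenitors, 5 were lower and 1 higher in M-MDSC Ctrl, the cells with less Gfi1. Of all genes, 36.8% were lower and 38.8% higher there. Csf1, the gene of a macrophage growth factor, was lower by the most of those named (-7.02 ± 0.3, limma adjusted p = 4.05e-11). In M-MDSC LD, where Gfi1 was higher, Egr1 and Id1 rose, with the values and the limit for Id1 given above, and the other 4 did not pass. In PMN-MDSC LD none of the 6 passed in limma, at an unadjusted p under 0.05, or by edgeR or DESeq2.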

How the data were processed

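Total RNA of 12 libraries was sequenced after probe-based ribosomal RNA depletion (NuGen Ovation Mouse RNA-seq System, 100 ng input), per the labels' protocols. The authors deposited 1 table of signal values for 23479 genes, normalized counts made by dividing reads by 1 size factor per library. Per the submitters' processing notes, reads went through HTSeq 0.6.1, STAR 2.5.3a and DESeq2 (order and roles not given) on build mm10. Every value was a whole multiple of what 1 read is worth (100% within 0.001), so whole reads were recovered, and 3377 genes had 0 reads in every library. Reads carry no molecular identifiers. Whether counting used strand is not given in the sources used here.

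Each comparison was fitted in R 4.3.3 with limma 3.58.1, on the log2 of the normalized count plus 1, for the 11122 genes with a mean of at least 10, with 1 mean per group, a trended empirical Bayes spread on 8 residual degrees of freedom and Benjamini-Hochberg adjustment over all genes tested in a comparison, two-sided, threshold 0.05. Differences are on that log2 scale, which understates changes of low genes, and folds are those differences turned back to ratios. Comparisons share groups, so they are not independent. Alternatives included the Wald test of DESeq2 1.42.0 and the quasi-likelihood test of edgeR 4.0.16, run on recovered reads, and other scalings, pseudocounts, minimum means, and each library left out. Scaling to equal totals and leaving out both LD replicate 1 libraries were added after seeing the data. The fits were tested on simulated data with known changes. Gene models came from GENCODE vM21 and promoters from RefSeq (GRCm38.p6).

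The members and lists were chosen with earlier results of these data known. All members are named. Genes named from each list are mostly drawn from the 4 of lowest adjusted p among those that passed in a comparison (or the 2 nearest if none did). Not all of these are given. Some of the 2 genes most correlated with each member are given. Mmp9, Cxcr2, Mmp8, Csf3r, Cd177, Camp, Ltf, Mpo and Elane as shares of PMN-MDSC, Mmp8 in M-MDSC and the overlapping genes were chosen after their values were seen.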

Additional observations from a re-analysis of the deposited data

Results flagged for a closer look

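These genes had an LD change that differed between the populations by the test of the difference itself (limma, M-MDSC minus PMN-MDSC, log2, adjusted p under 0.05). Zeb2 differed by 0.89 ± 0.16, with -0.18 in M-MDSC and -1.07 in PMN-MDSC. Cebpb differed by 0.59 ± 0.14, with 0.41 and -0.18.

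Among genes of the lists, Trib1 differed by 0.72 ± 0.16 (0.89 in M-MDSC and 0.16 in PMN-MDSC), Egr1 by 1.68 ± 0.39 (1.66 and -0.02), Bhlhe40 by 0.99 ± 0.21 (0.88 and -0.1) and Csf1r by 0.61 ± 0.14 (0.12 and -0.49). Among the granule and other neutrophil genes, Camp, Ltf and Itgb2l had larger changes in M-MDSC, where their Ctrl levels were lower. They differed by 2.42 ± 0.52, 2.27 ± 0.52 and 2.15 ± 0.52, with Itgb2l at 1.54 without both LD replicate 1 libraries. Mmp8 differed by -2.78 ± 0.25, with -0.89 in M-MDSC and 1.88 in PMN-MDSC, so it moved in opposite directions. Ly6c2 differed by -1.44 ± 0.23 (0.5 and 1.94) and Cybb by -1.05 ± 0.19 (0.16 and 1.2).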

How the results depend on the processing

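Of 50 results for single members, 25 passed, and 19 of these passed in the same direction under every alternative run for them. The exceptions were Cebpb in 3 comparisons, Id2 for LD in both populations and Cebpe for LD in PMN-MDSC. Cebpb in M-MDSC against PMN-MDSC in Ctrl reversed to 0.21 (adjusted p = 0.03141) with equal totals, by the shift of the scale itself. With 1 library left out, the number of members past the threshold was 9 throughout for the populations in Ctrl (9 in the reported fit), 7 to 9 in LD (7), 2 to 4 for LD in M-MDSC (4, with 2 without M-MDSC Ctrl replicate 1), 1 to 3 for LD in PMN-MDSC (3) and 1 to 3 for the difference of the LD changes (2). For that difference it was also 1 with no minimum mean, 1 with upper-quartile scaling and 4 with DESeq2, and the cause was not tested.

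Over all genes, DESeq2 called 723 for LD in M-MDSC against 335 and 692 for the difference against 250, sample weights called 976 and 524, only the groups compared gave 532 for LD in M-MDSC, no minimum mean gave 125 for the difference and leaving out both LD replicate 1 libraries gave 767. On the recovered reads edgeR called 8419 and 8233 genes between populations in Ctrl and LD, 440 for LD in M-MDSC, 1742 for LD in PMN-MDSC and 290 for the difference. With 1 library left out, the reported fit called 192 to 548 genes for LD in M-MDSC, 889 to 2163 for LD in PMN-MDSC (1745 with all) and 115 to 824 for the difference. With equal totals, the share of called genes that were higher in M-MDSC went from 51.4% to 70.8% in Ctrl and from 51.8% to 74.1% in LD, that for LD in PMN-MDSC from 45.7% to 35.5% and that for the difference from 52.4% to 69.5%. Fitting the replicate number as a replicate block gave 373 genes for LD in M-MDSC, 1657 for LD in PMN-MDSC and 213 for the difference, and left the members' counts at 9, 7, 4, 3 and 2. The numbers are not stated to mark animals, and residuals of same-numbered libraries correlated at -0.05 to 0.21 over all pairs of groups compared. Between the populations in LD every library correlated best with its own number (0.21, 0.12 and 0.07 for replicates 1, 2 and 3). Whether same-numbered LD libraries share a source is therefore not known. Gfi1 in M-MDSC Ctrl rests on 12 reads or fewer per library, so its fold depends on the pseudocount.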
